A study of Homo sapiens with 16 samples.

Results

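The genes described here are 9 inhibitors of PI3K and mTORC1 signalling, PIK3IP1, SESN1, SESN2, SESN3, DDIT4, DEPTOR, TSC1, TSC2 and AKT1S1, followed through a p53 activation experiment in U2OS cells with and without the transcription factor RFX7. They were chosen by gene name, with the log2 fold changes of all 4 comparisons below already known, so every value given for them is a description and supports no test. All 9 had a row in each of the 4 tables, out of 23396 genes in any table and 19344 genes in all 4. U2OS is an established human osteosarcoma line with intact p53. The 16 poly(A) RNA libraries formed 4 groups of 4: control siRNA (siControl) with DMSO, siControl with Nutlin-3a, RFX7 siRNA (siRFX7) with DMSO, and siRFX7 with Nutlin-3a. Nutlin-3a, a small molecule that keeps MDM2 off p53 so that p53 accumulates, was given at 10 µM for 24 h, and DMSO is its solvent. All groups were of the same line and all had been transfected with an siRNA. The labels give neither the siRNA sequences nor whether the 4 libraries of a group came from separate cultures, so the errors may hold technical spread only.

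PI3K turns growth factor signals into a membrane lipid that activates the kinase AKT, and AKT in turn relieves the TSC complex's hold on the small GTPase RHEB, which switches on the kinase complex mTORC1 at the lysosome. mTORC1 also needs amino acids, sensed through the GATOR complexes and the Rag GTPases. The 9 genes act as brakes at successive steps: PIK3IP1 is a membrane protein that inhibits PI3K, DDIT4 (REDD1) promotes TSC activity under stress, TSC1 and TSC2 form the TSC complex, the sestrins SESN1, SESN2 and SESN3 restrain mTORC1 through the GATOR complexes, and DEPTOR and AKT1S1 (PRAS40) are inhibitory partners of mTOR. SESN1 and SESN2 are long-known p53 targets, and DDIT4 is induced by several stresses, p53 activation among them.

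Upstream sequences are shown for the 3 genes whose Nutlin-3a response was much smaller in siRFX7 (PIK3IP1, SESN3 and DDIT4) and for SESN2, which kept most of its response. They are the bases before the RefSeq start on GRCh38.p14, ended where the GENCODE 29 gene begins, written 5′ to 3′ on the strand of the gene. The window was chr22:31292535-31292784 (minus strand) for PIK3IP1, chr11:95232542-95232725 (minus strand) for SESN3, chr10:72273674-72273919 (plus strand) for DDIT4 and chr1:28259268-28259517 (plus strand) for SESN2. Capitals mark matches on either strand to GTTGCC or GTTGCT, which are versions of one arm of the X-box bound by RFX proteins and differ only in their last letter, to CCAAT, or to GGGCGG, the GC box.

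PIK3IP1: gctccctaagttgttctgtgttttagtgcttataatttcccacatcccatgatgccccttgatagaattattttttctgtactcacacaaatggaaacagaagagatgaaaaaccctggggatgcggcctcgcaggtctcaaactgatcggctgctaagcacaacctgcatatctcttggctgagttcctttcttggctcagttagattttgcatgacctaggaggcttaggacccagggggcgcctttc

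SESN3: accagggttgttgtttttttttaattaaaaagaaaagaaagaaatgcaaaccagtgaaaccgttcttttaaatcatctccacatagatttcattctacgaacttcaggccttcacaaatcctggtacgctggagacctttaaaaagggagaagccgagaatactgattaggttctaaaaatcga

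DDIT4: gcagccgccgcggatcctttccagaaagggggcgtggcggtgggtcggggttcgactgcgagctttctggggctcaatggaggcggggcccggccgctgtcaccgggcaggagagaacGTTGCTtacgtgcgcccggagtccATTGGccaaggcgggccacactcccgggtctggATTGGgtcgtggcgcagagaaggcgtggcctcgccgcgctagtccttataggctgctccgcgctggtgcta

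SESN2: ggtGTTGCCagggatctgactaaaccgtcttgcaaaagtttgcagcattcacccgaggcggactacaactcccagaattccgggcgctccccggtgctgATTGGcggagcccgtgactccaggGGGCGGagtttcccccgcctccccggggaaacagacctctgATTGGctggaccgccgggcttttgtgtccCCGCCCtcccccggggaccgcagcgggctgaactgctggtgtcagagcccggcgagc

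In the 250 bases before the RefSeq start, DDIT4 held 1 GTTGCT, whose first base lies 132 bases upstream, and SESN2 held 1 GTTGCC, whose first base lies 247 bases upstream. SESN1, for which the difference of the responses was not called, held 1 GTTGCC in the window of 1 of its 3 RefSeq starts, 177 bases upstream, and 1 to 7 GGGCGG per window. PIK3IP1 and SESN3 held no match to any of the 4 words there, and TSC1 and TSC2 held GGGCGG only. Of 35116 RefSeq promoter windows of this length, 19.2% held GTTGCC or GTTGCT, 32.0% held CCAAT and 42.6% held GGGCGG. The GC content was 46.8% for PIK3IP1 and 42.8% for SESN3, against 68.8% for DDIT4, 65.6% for SESN2 and a median of 58.0% over all windows. Promoters were matched for 7 of the 9 genes; the others are AKT1S1 and DEPTOR. A match is a string of letters and not a bound site, and a window without one says nothing about RFX7 at that gene.

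The tables held no single library, so no value per library can be given. The authors' base mean, its read counts after size-factor scaling, averaged over a comparison's 8 libraries, summed to between 27946376 and 35311111 per table. In the authors' deposited tables RFX7 itself was at 18.6% of its siControl level under DMSO and at 19.4% under Nutlin-3a, and the p53 target CDKN1A rose with Nutlin-3a by 3.24 ± 0.04 (SE) on the log2 scale in siControl, against 2.98 ± 0.04 in siRFX7. Of 9 osteoblast lineage markers 6 were in all 4 tables, and the base means of the list summed to between 65987 and 72369. COL1A1 and SPARC made up most of that sum. COL1A2 had base means of only 11.0 to 13.2 and BGLAP of at most 4.25, and SP7 and IBSP were in no table. Of 4 epithelial markers 3 were in all 4 tables, with a sum between 374 and 443, and of 3 blood cell markers none was, with a sum of at most 5.21. In a bulk culture, fewer cells with a transcript and less of it per cell cannot be told apart.

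The 9 brakes differed widely in level. Group levels were computed from each base mean and log2 fold change, put on a single scale and divided by exon length, and they are given as normalised counts per kb per 1000000. The 2 tables that contain a given group were normalised separately, and their levels differed by at most 0.786%. Under DMSO in siControl, AKT1S1 was the most abundant brake at 38.2, followed by SESN2 at 11.1, DDIT4 at 5.18, TSC2 at 5.08, TSC1 at 3.28 and SESN1 at 1.63. SESN3 at 0.614, PIK3IP1 at 0.602 and DEPTOR at 0.461 had the lowest levels. The spread over libraries is unknown for these levels, so neighbours in this order, such as DDIT4 and TSC2 or SESN3 and PIK3IP1, cannot be told apart. With the longest transcript as the length, TSC2 stood at 15.7, above SESN2.

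**Figure D1:**
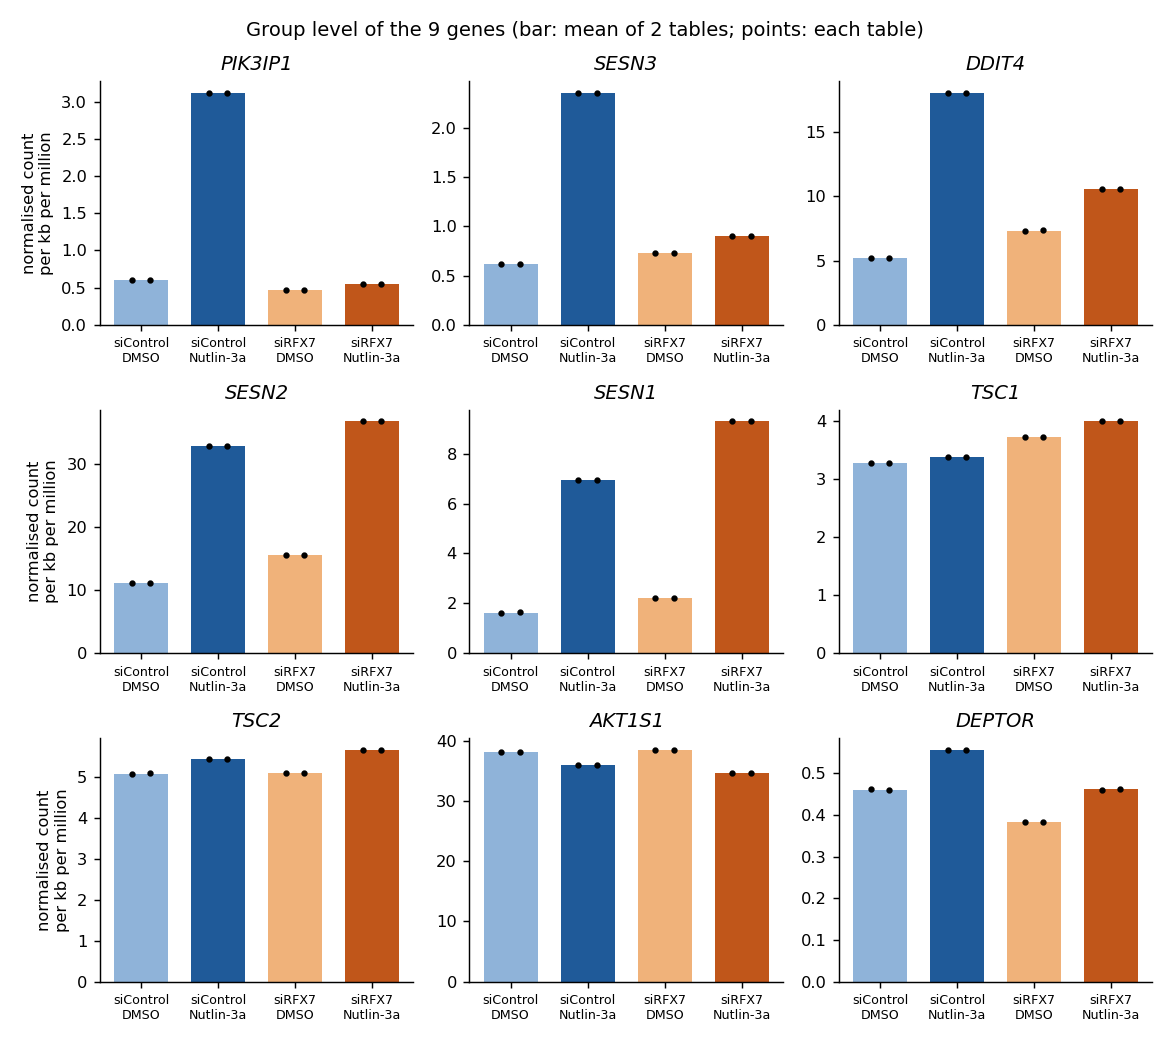
Level of each of the 9 genes in the 4 groups, in normalised counts per kb of exon per 1000000, on a linear axis from 0; bars are the mean of the values from the 2 tables that contain a group and points are those 2 values. PIK3IP1 and SESN3 stand high in siControl with Nutlin-3a alone, and DDIT4 is highest there but also rises, by less, in siRFX7. SESN1 and SESN2 rise with Nutlin-3a in both siRNA groups, and TSC1, TSC2 and AKT1S1 are nearly level.

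PIK3IP1, the brake that acts directly on PI3K, showed the largest change of the 9. Its level was 0.602 in siControl with DMSO, 3.12 in siControl with Nutlin-3a, 0.473 in siRFX7 with DMSO and 0.546 in siRFX7 with Nutlin-3a. Only the siControl group given Nutlin-3a stood high, and the siRFX7 group given the same drug was near the levels of both DMSO groups. In the authors' deposited table for siControl the gene (ENSG00000100100, chromosome 22, 31281593 to 31292534, minus strand, GENCODE 29) rose 5.18-fold with Nutlin-3a, a log2 fold change of 2.37 ± 0.14 (SE). The authors' deposited table for siRFX7 gave 0.21 ± 0.21 (SE), with a 95% interval of -0.21 to 0.62, which did not pass an adjusted p of 0.05. With the knockdown and Nutlin-3a, the authors' deposited table put PIK3IP1 at 17.6% of the siControl level, rank 2 from the lowest of 20335 genes. Under DMSO the authors' deposited table placed it at 78.7% of siControl, a log2 fold change of -0.34 ± 0.19 (SE) that was not called. Its base mean was between 52.6 and 253 in the 4 tables, so its errors are wide next to those of the more abundant brakes. The opposite strand carries PIK3IP1-AS1, whose base mean in the authors' deposited table for Nutlin-3a in siControl was 4.03, with a log2 fold change of 2.56 (adjusted p 0.0141, DESeq2); the library kit keeps strand, but whether the counting used it was not stated.

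DDIT4, which feeds stress signals into the TSC complex, crossed over: it was higher with siRFX7 in the absence of Nutlin-3a and lower in its presence. The 4 levels were 5.18 in siControl with DMSO, 18.1 in siControl with Nutlin-3a, 7.33 in siRFX7 with DMSO and 10.5 in siRFX7 with Nutlin-3a. DDIT4 was thus higher with Nutlin-3a in both siRNA groups, by less in siRFX7. With Nutlin-3a the authors' deposited tables gave a 3.49-fold rise in siControl and a 1.44-fold rise in siRFX7 (ENSG00000168209, chromosome 10, 72273920 to 72276036, plus strand). Relative to siControl, the authors' deposited tables placed DDIT4 in siRFX7 at 142% under DMSO and at 58.5% under Nutlin-3a, with log2 fold changes of 0.50 ± 0.08 and -0.77 ± 0.06 (SE). With the statistics of the table divided by their robust SD, the value under DMSO was no longer called (adjusted p 0.169).

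The 3 sestrins, which are paralogs, behaved differently from one another. SESN3 had levels of 0.614 in siControl with DMSO, 2.36 in siControl with Nutlin-3a, 0.728 in siRFX7 with DMSO and 0.904 in siRFX7 with Nutlin-3a. Its rise with Nutlin-3a (ENSG00000149212, chromosome 11, 95165513 to 95232541, minus strand) was, from the authors' deposited tables, 3.84-fold in siControl and 1.24-fold in siRFX7. The siRFX7 group given Nutlin-3a was at 38.3% of siControl in the authors' deposited table, while under DMSO SESN3 stood at 118% of siControl without being called. An antisense transcript across SESN3, AP000787.1, had base means of at most 11.8.

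SESN1 showed the opposite pattern. Its levels were 1.63 in siControl with DMSO, 6.94 in siControl with Nutlin-3a, 2.20 in siRFX7 with DMSO and 9.30 in siRFX7 with Nutlin-3a. Each Nutlin-3a group stood far above its DMSO group, and each siRFX7 group above its siControl partner. For Nutlin-3a the authors' deposited tables gave log2 fold changes of 2.09 ± 0.07 (SE) in siControl and 2.08 ± 0.07 in siRFX7 (ENSG00000080546, chromosome 6, 108986437 to 109094819, minus strand). With siRFX7, SESN1 was higher by a like amount under both treatments in the authors' deposited tables (DMSO, 0.43 ± 0.09, SE; Nutlin-3a, 0.42 ± 0.05).

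SESN2, the most abundant sestrin, fell between these patterns. Levels of 11.1 and 32.9 in siControl, with DMSO and with Nutlin-3a, compared with 15.6 and 36.9 in siRFX7. SESN2 (ENSG00000130766, chromosome 1, 28259527 to 28282491, plus strand) rose, by the authors' deposited tables, 2.95-fold with Nutlin-3a in siControl and 2.37-fold in siRFX7. The smaller fold in siRFX7 went with a higher starting level: in the authors' deposited tables SESN2 was above siControl by 0.48 ± 0.05 (SE) under DMSO and by 0.17 ± 0.05 under Nutlin-3a. The latter lost its call when the statistics were divided by their robust SD (adjusted p 0.607).

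Added up, sestrin mRNA was at 13.4 in siControl with DMSO, 42.2 in siControl with Nutlin-3a, 18.5 in siRFX7 with DMSO and 47.1 in siRFX7 with Nutlin-3a. SESN2 made up 77.9% to 84.2% of this sum in the 4 groups, or 71.7% to 79.5% with the longest transcripts as lengths. SESN3 contributed 5.59% of it in siControl with Nutlin-3a and 1.92% in siRFX7 with Nutlin-3a. The summed level was therefore not lower in siRFX7 in spite of the smaller SESN3 response.

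The constitutive brakes moved little. TSC1 (ENSG00000165699, chromosome 9, 132891348 to 132946874, minus strand) had levels of 3.28 and 3.39 in siControl and of 3.73 and 4.005 in siRFX7, with DMSO and with Nutlin-3a. The authors' deposited tables called it higher with siRFX7, by 0.19 ± 0.05 (SE) in DMSO and by 0.24 ± 0.04 in Nutlin-3a. Its partner TSC2 (ENSG00000103197, chromosome 16, 2047465 to 2089487, plus strand) ranged from 5.08 to 5.66 and was called only with Nutlin-3a in siRFX7, at 0.15 ± 0.05 (SE) in the authors' deposited table. AKT1S1 (ENSG00000204673, chromosome 19, 49869033 to 49878459, minus strand) lay between 34.7 and 38.5 and was called only in that same comparison, at -0.15 ± 0.05 (SE) in the authors' deposited table. The largest of these changes was 1.18-fold, for TSC1 under Nutlin-3a. TSC2 is overlapped on the other strand by NTHL1 and PKD1, and AKT1S1 by TBC1D17, so small changes in either are uncertain.

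DEPTOR (ENSG00000155792, chromosome 8, 119873717 to 120050913, plus strand) had base means between 30.1 and 47.8 and passed in no comparison. Its levels were 0.461 and 0.557 in siControl and 0.384 and 0.462 in siRFX7, with DMSO and with Nutlin-3a. With SEs of 0.22 to 0.26 in the authors' deposited tables, a change of the size seen for TSC1 was not detectable at this depth.

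Counted over the 9, Nutlin-3a in siControl called 5 higher and none lower at an adjusted p under 0.05 in the authors' deposited table, where 18.3% of all genes were called higher and 19.6% lower. In siRFX7, 5 were called higher and 1 lower in the authors' deposited table, against 18.7% and 20.3% of all genes. The 5 were not the same: PIK3IP1 was called in siControl, and TSC2 in siRFX7. The median log2 fold change of the 9 was 1.56 in siControl and 0.27 in siRFX7, beside medians of all genes of 0.010 and 0.0090 in the authors' deposited tables. These counts rest on comparisons that were known when the genes were chosen, and nothing is read from them.

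**Figure D2:**
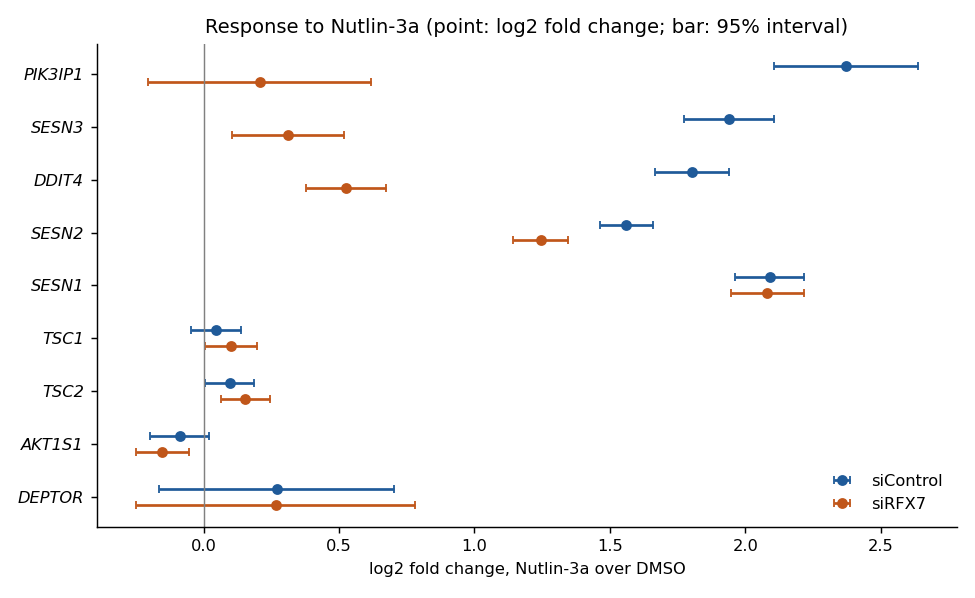
Log2 fold change with Nutlin-3a over DMSO (horizontal axis) for each of the 9 genes in siControl (blue) and siRFX7 (orange); points are the deposited values and bars their 95% intervals. The intervals of siControl and siRFX7 lie apart for PIK3IP1, SESN3, DDIT4 and SESN2, and overlap for SESN1, TSC1, TSC2, AKT1S1 and DEPTOR.

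For siRFX7 against siControl, 4 brakes were called higher and none lower under DMSO in the authors' deposited table, where 19.9% of all genes were called higher and 17.5% lower. The 4 were DDIT4, SESN2, SESN1 and TSC1. Under Nutlin-3a the authors' deposited table called 3 higher (SESN1, SESN2 and TSC1) and 3 lower (PIK3IP1, SESN3 and DDIT4), against 17.2% and 15.4% of all genes. The medians of the 9 were 0.19 under DMSO and -0.050 under Nutlin-3a, beside -0.0024 and -0.0053 for all genes. The Nutlin-3a comparisons and the siRFX7 comparisons share libraries, so they are not separate evidence.

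**Figure D3:**
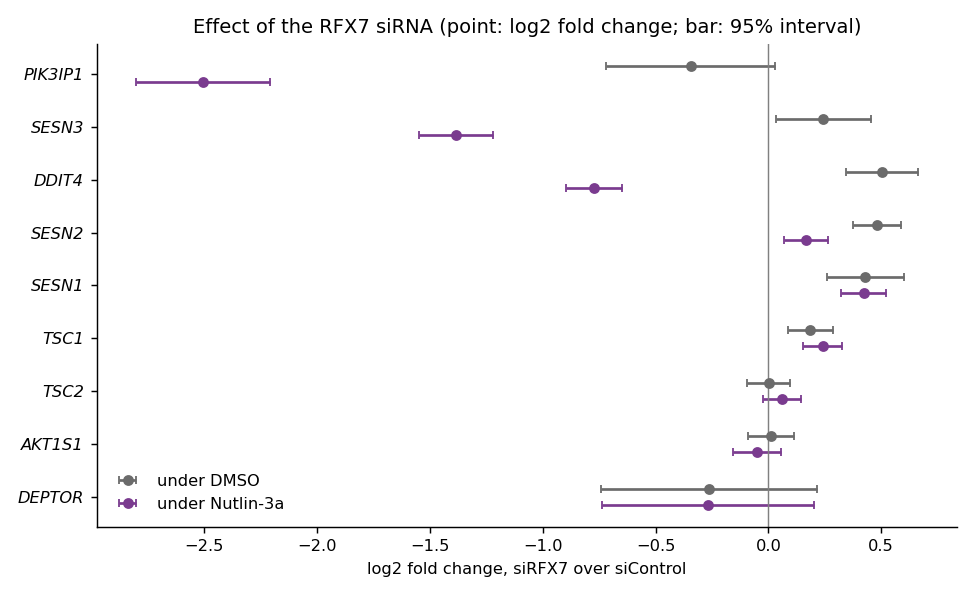
Log2 fold change of siRFX7 over siControl (horizontal axis) for each of the 9 genes under DMSO (grey) and under Nutlin-3a (purple); points are the deposited values and bars their 95% intervals. Under DMSO no gene lies below -0.34, whereas under Nutlin-3a PIK3IP1, SESN3 and DDIT4 lie at -2.50, -1.38 and -0.77.

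To compare the Nutlin-3a responses directly, the log2 fold change in siControl was subtracted from that in siRFX7; the 2 tables share no library. Of the 9 brakes, 4 had a lower response in siRFX7 at a Benjamini-Hochberg adjusted p under 0.05 and none a higher one, where 0.764% of 21339 genes were lower and 0.173% higher. Both responses were known when the genes were chosen, so this count is a description and nothing is read from it against those shares. The differences on the log2 scale were -2.17 ± 0.25 (SE) for PIK3IP1, -1.63 ± 0.14 for SESN3, -1.28 ± 0.10 for DDIT4 and -0.32 ± 0.07 for SESN2. In linear terms the fold response of PIK3IP1 was 4.49 times smaller in siRFX7, that of SESN3 3.09 times, that of DDIT4 2.43 times and that of SESN2 1.25 times. For SESN1 the difference was -0.0086 ± 0.10, with a 95% interval of -0.19 to 0.18, and for TSC1, TSC2 and AKT1S1 the intervals reached from -0.21 to 0.19 in all. DEPTOR's interval of -0.68 to 0.67 leaves room for a change larger than that of SESN2.

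**Figure D4:**
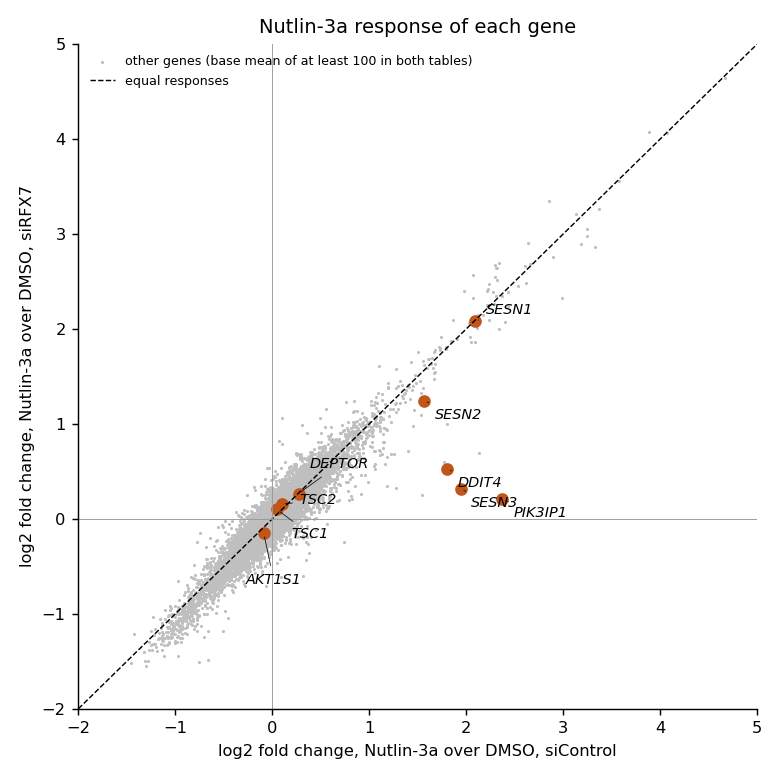
Log2 fold change with Nutlin-3a in siControl (horizontal axis) against that in siRFX7 (vertical axis) for the 9 genes (orange) and 12832 other genes whose base mean reached 100 in both tables (grey); the dashed line marks equal responses. SESN1 sits on the line at 2.09 and 2.08, while PIK3IP1, SESN3 and DDIT4 lie far below it.

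Genes whose pattern over the 4 comparisons lay closest to the responsive brakes were ranked by Euclidean distance between the 4 deposited log2 fold changes. Candidates were the 12178 genes with a gene symbol, clone names left out, whose base mean reached 100 in every table. Nearest to PIK3IP1 were MXD4 (distance 1.06), a MAX partner that opposes MYC, then PNRC1 (1.13), a nuclear coregulator and decapping cofactor, SESN3 (1.34), the cyclin CCNG2 (1.49) and the GABA transaminase gene ABAT (1.78). SESN3 was closest to YPEL2 (0.57), MXD4 (0.64), DDIT4 (0.71), PNRC1 (0.87) and the complement gene C3 (0.95). For DDIT4 the order was YPEL2 (0.31), FAM214A (0.60), SESN3 (0.71), RAB40B (0.80) and C3 (0.83). YPEL2 responded like DDIT4 in each comparison, with log2 fold changes in the authors' deposited tables of 1.77 and 0.60 with Nutlin-3a and of 0.25 and -0.92 with siRFX7. PIK3IP1 had no neighbour as near among these candidates. Its own base mean was 52.6 for Nutlin-3a in siRFX7 and 65.8 for siRFX7 under DMSO, below the minimum of 100. Genes as low as PIK3IP1 were therefore not compared, and nothing is read from the lack of a near neighbour. Its -2.50 with siRFX7 under Nutlin-3a lay below its 5 nearest candidates, of which PNRC1 was lowest at -1.74, in the authors' deposited table. The 4 comparisons share libraries, and the distances describe this experiment only.

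Words in the 3′ ends were counted as well. An earlier scan of these same log2 fold changes had picked the word GTATCTA from genes that were lower with siRFX7 and the word GACGTA from genes that were higher. Neither word was in a GENCODE 29 3′ UTR of any of the 9 genes, nor of the 14 pathway genes that the naming rule selects below. Among 11512 protein-coding genes whose base mean reached 100, 8.95% carried the first and 5.48% the second, so none among 9 genes is near what those shares give.

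The rest of the pathway was described by 74 further genes in 8 lists, of which 71 were in both Nutlin-3a tables; PIK3R2, DDIT4L and EIF4EBP3 were not analysed here. In siControl, Nutlin-3a called 20 of the 71 higher (28.2%) and 14 lower (19.7%) in the authors' deposited table, with a median of 0.0014; over all genes the shares were 18.3% and 19.6%. In siRFX7 the authors' deposited table called 20 higher and 20 lower (28.2% each), with a median of 0.030, against 18.7% and 20.3% of all genes. Of the 34 called in siControl, 4 reached a size of 0.5 on the log2 scale. For Nutlin-3a in siControl, 13525 of 23353 genes had a base mean of at least 100. Among the 71, all but PIK3CG, CASTOR1 and RHEBL1 did. Genes with few reads are harder to call, so these shares compare genes of unlike depth and nothing is read from them. The same holds for the list counts below.

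Among PI3K subunits and the phosphatases that remove its lipid products, Nutlin-3a called 4 of 10 higher and 1 lower in siControl. Over all genes the shares were 18.3% and 19.6%. INPP5D (SHIP1), a lipid phosphatase, had the highest values of these lists in the authors' deposited tables, 3.89 ± 0.11 (SE) for siControl and 4.08 ± 0.14 for siRFX7. PIK3CD, a catalytic subunit of PI3K, was among the highest in siRFX7 at 0.53 ± 0.05 (SE) in the authors' deposited table.

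PIK3R3, a regulatory subunit of PI3K (ENSG00000117461, chromosome 1, 46040140 to 46133036, minus strand), was the 1 gene of the 71 for which the difference of the Nutlin-3a responses passed. That is 1.41% of the 71, beside 0.764% of all genes called lower and 0.173% called higher, and nothing is read from this count. PIK3R3 levels, per kb as above, were 3.70 in siControl with DMSO, 4.61 in siControl with Nutlin-3a, 2.88 in siRFX7 with DMSO and 1.90 in siRFX7 with Nutlin-3a. Nutlin-3a raised it in siControl, by 0.32 ± 0.05 (SE), and lowered it in siRFX7, at -0.60 ± 0.08, in the authors' deposited tables. The difference was -0.92 ± 0.09 (SE), with an adjusted p of 2.05e-19 from the two-sided normal test over 21339 genes with Benjamini-Hochberg adjustment. With siRFX7 it was lower under both treatments in the authors' deposited tables, with -0.36 ± 0.06 (SE) for DMSO and -1.28 ± 0.07 for Nutlin-3a, the latter the lowest value of the pathway lists there. A subunit gene of PI3K and the gene of its inhibitor PIK3IP1 were thus both lower with siRFX7 under Nutlin-3a.

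The other arms followed no single direction, and their counts for siControl stand beside 18.3% of all genes called higher and 19.6% lower. In the AKT list 4 of 6 genes were called lower with Nutlin-3a in siControl and none higher, led by the AKT phosphatase gene PHLPP1. The authors' deposited tables had PHLPP1 at -0.59 ± 0.08 (SE) for siControl and -0.79 ± 0.08 for siRFX7. RHEB, the GTPase that the TSC complex inactivates, fell by 0.39 ± 0.06 (SE) in siControl in the authors' deposited table. TTI1, which helps assemble mTOR complexes, had -0.40 ± 0.05 (SE) for siControl and -0.48 ± 0.05 for siRFX7 in the authors' deposited tables. Of the AMPK list, Nutlin-3a called 4 of 9 higher and none lower in siControl. PRKAB2, a regulatory subunit of AMPK, was highest there, and the authors' deposited tables gave 0.88 ± 0.04 (SE) for siControl and 0.94 ± 0.04 for siRFX7. Of the Rag and Ragulator genes 6 of 13 were called higher and none lower, and of the GATOR and KICSTOR genes 3 of 14 (21.4%) were called in each direction, near the shares of all genes. TFEB, a transcription factor controlled by mTORC1, rose by 0.53 ± 0.13 (SE) in siControl in the authors' deposited table; its response in siRFX7 differed from this by -0.34 ± 0.18, which was not called.

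With siRFX7 the authors' deposited tables called 24 of the 71 higher (33.8%) and 10 lower (14.1%) under DMSO, with a median of 0.044, where all genes gave 19.9% and 17.5%. In Nutlin-3a they called 21 higher (29.6%) and 11 lower (15.5%), with a median of 0.083, where all genes gave 17.2% and 15.4%. These shares also compare genes of unlike depth, and nothing is read from them. RPTOR, the scaffold that defines mTORC1, stood at 0.79 ± 0.05 (SE) for DMSO and 0.71 ± 0.04 for Nutlin-3a in the authors' deposited tables. CASTOR2, named for the arginine sensor family, stood at 0.85 ± 0.13 (SE) and 0.59 ± 0.14, and FNIP2, a folliculin partner, at 0.69 ± 0.06 and 0.62 ± 0.05, in the authors' deposited tables. Among the 3 lowest under each treatment were the Ragulator genes LAMTOR2, at -0.48 ± 0.06 (SE) and -0.50 ± 0.06, and LAMTOR4, at -0.42 ± 0.07 under each treatment, in the authors' deposited tables. PRKAG1, another AMPK subunit, lay between LAMTOR2 and LAMTOR4 under DMSO, at -0.44 ± 0.04 (SE) in the authors' deposited table. PIK3R3 was the lowest under Nutlin-3a.

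**Figure D5:**
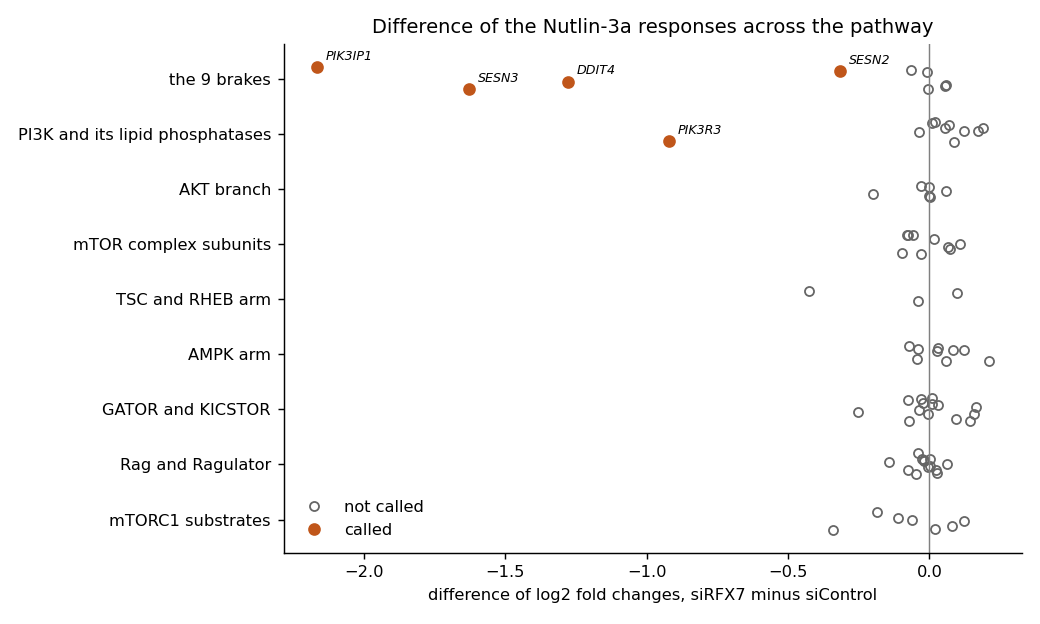
Difference of the Nutlin-3a responses on the log2 scale, siRFX7 minus siControl (horizontal axis), for the 9 brakes and the 8 pathway lists; filled orange points passed an adjusted p of 0.05 and open points did not, and vertical scatter within a row only separates points. Besides 4 brakes, PIK3R3 at -0.92 is the only filled point.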

How the data were processed

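Poly(A) RNA of 16 U2OS libraries was sequenced after stranded library preparation, per the labels' protocols. Per the submitters' processing notes, the build was hg38 and tools included featureCounts 1.6.5 and DESeq2 1.20.0; the aligner and annotation were not given in the sources used here. The authors deposited 4 DESeq2 tables comparing 2 groups of 4 libraries each. The base mean, a signal made by the authors with DESeq2, is a mean of normalised read counts. The log2 fold changes and SEs were used as deposited, the Wald statistic is a deposited score, and the deposited p-value was adjusted over exactly the genes of a table. Direction was set from RFX7, CDKN1A and MDM2. A gene counted as called where its adjusted p was below 0.05.

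The difference of the Nutlin-3a responses was computed over 21339 genes with a two-sided normal p and Benjamini-Hochberg adjustment (Python 3.11.15, SciPy 1.17.1), and that step was tested on simulated data. The simulated noise was drawn from the deposited SEs, so it checks the computation and cannot show whether those SEs are too small. A group's level was 2 × base mean ÷ (1 + fold) for the reference group and the fold times that for the other, scaled between tables by the median ratio of shared groups, and divided by GENCODE 29 exon length. Intervals are 95%. The members and lists were chosen with earlier results of these data known. All 9 members were named. Of the pathway lists, the 3 highest and 3 lowest called genes per comparison whose base mean reached 100 were named, with any gene whose response differed. Alternatives were a threshold of 0.01, a size of at least 0.5, a base mean of at least 100, median centring, robust scaling of the statistics, the other pair of tables and transcript length.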

Additional observations from a re-analysis of the deposited data

Results flagged for a closer look

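The difference of the Nutlin-3a responses was called for 4 of the 9 brakes and 1 of the 71 other pathway genes. Over all genes, 0.764% were called lower and 0.173% higher. The brakes and pathway genes were chosen with both responses known, so these are descriptions and not independent tests. On the log2 scale, siRFX7 minus siControl, the differences were -2.17 for PIK3IP1, -1.63 for SESN3, -1.28 for DDIT4, -0.32 for SESN2 and -0.92 for PIK3R3. SESN2 was called higher with siRFX7 under both treatments, and DDIT4 higher under DMSO and lower under Nutlin-3a. After scaling each table by the robust SD of its statistics, SESN2 under Nutlin-3a (adjusted p 0.607) and DDIT4 under DMSO (0.169) were no longer called. PIK3R3 rose with Nutlin-3a in siControl and fell in siRFX7. No library values were analysed here, so no sample could be examined as an outlier.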

How the results depend on the processing

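No paired analysis was possible because the tables hold no value of a single library, and for the same reason no replicate could be left out. Requiring a size of at least 0.5 on the log2 scale left 3 brakes called with Nutlin-3a in siRFX7, 1 with siRFX7 under DMSO and 3 with siRFX7 under Nutlin-3a. For the other pathway genes that size left 4 with Nutlin-3a in siControl, 6 with Nutlin-3a in siRFX7, 3 with siRFX7 under DMSO and 5 under Nutlin-3a. Dividing the statistics by their robust SD left 3 brakes with Nutlin-3a in siRFX7, 1 with siRFX7 under DMSO and 4 with siRFX7 under Nutlin-3a, and 9, 8, 7 and 7 pathway genes in the 4 comparisons. An adjusted p under 0.01 left 26 pathway genes with Nutlin-3a in siRFX7. The shares of all genes called at these settings are not given here. These counts therefore do not show whether the brakes or pathway genes lost calls more often than other genes. Centring on the median turned the direction of 2 uncalled values under DMSO, TSC2 to -0.013 and AKT1S1 to -0.00079 with siRFX7. For single brakes, 114 of 127 values, leaving out the other pair of tables, kept direction and side of the threshold, 8 lost their call, 3 gained one and 2 reversed. The 8 were all under the robust SD: SESN1, DDIT4 and TSC1 with siRFX7 under DMSO, SESN2 and TSC1 with siRFX7 under Nutlin-3a, and SESN3, TSC2 and AKT1S1 with Nutlin-3a in siRFX7. SESN3 was called higher with siRFX7 under DMSO when p was adjusted only over genes whose base mean reached 100 (p 0.0464). The 4 differences of PIK3IP1, SESN3, DDIT4 and SESN2 stayed called at an adjusted p under 0.01. They also did under median centring and the robust SD, but these 2 alternatives could hardly have removed a call. For the difference the median shift was -0.00073, and dividing by the robust SD of 0.949 enlarged every statistic. In the 4 comparisons the robust SD was 2.23 to 2.49. Of the 4 differences, SESN2 is under the size of 0.5 and PIK3IP1 fell below the base mean minimum. The other pair of tables gave -2.16, -1.63, -1.28 and -0.32, which is the same contrast of the same libraries and no separate support. The low base means of DEPTOR and, in siRFX7, PIK3IP1 limit what could be detected.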

Other observations

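The Ragulator complex, which tethers mTORC1 to the lysosome, has 5 LAMTOR subunits, and their transcripts went in different directions with siRFX7. In the authors' deposited table for DMSO, LAMTOR2 and LAMTOR4 were lower (-0.48 ± 0.06 and -0.42 ± 0.07, SE), while LAMTOR3, LAMTOR5 and LAMTOR1 were higher (0.31 ± 0.06, 0.18 ± 0.07 and 0.17 ± 0.06). In Nutlin-3a, the authors' deposited table had -0.50 and -0.42 for LAMTOR2 and LAMTOR4, 0.31 for LAMTOR3 and 0.13 for LAMTOR1, all called, and 0.038 for LAMTOR5, not called. For none of the 5 was the difference of the Nutlin-3a responses called. In the AKT list 4 of 6 genes were called higher with siRFX7 under DMSO and none lower, where all genes gave 19.9% and 17.5%. Among them were PDPK1 by 0.40 ± 0.04 (SE) and AKT2 by 0.27 ± 0.05 under DMSO in the authors' deposited table, whereas AKT1 was at -0.061 ± 0.04 and not called. These genes were picked after their values were seen.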
